A study of Bos taurus with 18 samples.

Results

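The genes described here encode the machinery that brings new proteins into the endoplasmic reticulum (ER) and carries them between the ER and the Golgi apparatus. They were chosen by symbol: the signal recognition particle (SRP), the translocon and translocon-associated proteins (SEC61, SEC62, SEC63, SSR), the signal peptidase (SEC11, SPCS), protein disulfide isomerases (PDIA), the COPII coat and the SEC22 proteins (SEC13, SEC22, SEC23, SEC24, SEC31), the p24 cargo receptors (TMED), the COPI coat (COPA, COPB, COPE, COPG, COPZ) and the KDEL receptors. This gave 55 genes of the 9155 that the array names, measured by 87 probe sets. For a gene with several probe sets, the brightest on average stands for it. SSRP1, a subunit of the histone chaperone FACT, is among the 55 by its letters alone and is described apart.

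RNA from milk cells of 18 dairy cows was measured on Affymetrix bovine arrays, with 1 array per cow. Of these cows 6 had mastitis, an inflammation of the udder, 6 had endometritis, an inflammation of the uterine lining, and 6 were healthy. Cows came from farms and from veterinary clinics, and the labels name no breed, pathogen, drug or cell sorting for any group. Both diseased groups are labelled as being in lactations 1 to 8 and 10 to 220 days after calving. The healthy cows had milk cell counts below 100000 per ml, and most were 10 to 100 days after calving. Their label gives an age of 2 to 4 years together with 1 animal in its 8th lactation, which cannot both hold, so age and parity of the healthy cows are in doubt, and time since calving may not match across groups. Values are log2 intensities, in which a difference of 1 is a 2-fold change, and errors are standard errors (SE) of the fit unless named as SD. The number of arrays limits the precision of every value, and p-values set each difference against the spread between cows.

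A protein bound for secretion or for a membrane carries a signal sequence, which SRP binds as it leaves the ribosome. SRP pauses translation and docks at its receptor on the ER, where the chain is threaded through the SEC61 channel, helped by the TRAP complex that the SSR genes encode, and the signal peptidase removes the signal sequence. Disulfide isomerases help the chain fold, COPII vesicles take it to the Golgi apparatus, and COPI vesicles bring escaped ER proteins back, caught by KDEL receptors. The epithelium of the lactating udder runs this route at a high rate to export caseins and whey proteins.

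The cells in the milk differed between the groups, and this stands beside every result below. Markers of mammary secretory cells, such as caseins, averaged 5.22, 5.54 and 7.29 on mastitis arrays (lowest, median and highest of 6 arrays), 7.98, 10.60 and 11.57 on endometritis arrays and 9.32, 11.03 and 11.28 on healthy arrays. Neutrophil markers averaged 8.10, 9.17 and 9.47 on mastitis arrays, 4.11, 4.56 and 6.88 on endometritis arrays and 4.68, 5.07 and 6.58 on healthy arrays. In both lists the mastitis arrays shared no level with the other arrays. Of the listed markers 19 of 21 secretory and 7 of 14 epithelial genes were lower in mastitis than in healthy cows. Higher were 7 of 9 neutrophil and 3 of 8 B and plasma cell genes. At their brightest probe sets 0 of 11 macrophage, 0 of 12 T cell and 0 of 7 erythroid markers passed, though a dimmer probe set of a macrophage marker was called higher. None of the 9 neutrophil and 21 secretory markers was at background in any group, and all 7 erythroid markers were at background in healthy cows. In such mixed samples fewer cells of a type and less RNA per cell cannot be told apart. RNA quality was read from GAPDH, as its 3′ control signal minus its 5′ control signal, which ran from 0.08 to 0.71 in mastitis, 0.30 to 1.05 in endometritis and 0.35 to 1.52 in healthy cows. The spiked dap control RNA read 5.54 to 6.66, 5.89 to 7.88 and 6.79 to 9.03 in the same order of groups. Fits with the GAPDH gap as a covariate are given below as alternative settings. Beyond these, the part that cell makeup, RNA quality and labelling play in the results below was not tested.

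The first comparison sets milk cells of the inflamed udder against those of healthy cows. Of the 55 genes, 17 fell in mastitis, 2 rose and 36 did not pass (limma, adjusted p under 0.05). Among all 24016 probe sets 9.35% were called lower and 10.2% higher. By role, 5 of 6 SRP genes, 4 of 8 COPI genes, 3 of 10 translocon genes and 2 of 5 signal peptidase genes fell, against 1 of 10 COPII and SEC22 genes, 2 of 9 p24 genes and 0 of 3 genes each for the disulfide isomerases and the KDEL receptors. These differences between roles were not tested. The median difference was -0.39 over the 55 genes and -0.01 over all 9155 genes. The background depends on brightness, since dim genes can hardly fall. Of 39 members with a mean above 5 over all 18 arrays 15 fell and 0 rose, or 38.5% lower, while of the 2319 genes as bright 29.7% were lower and 20.5% higher. With the line at the table median of 2.55, 33.3% of 51 members and 22.0% of 6549 genes were lower. At an unadjusted p under 0.05 the 55 genes gave 25 lower (45.5%) and 5 higher (9.09%), against 22.7% and 16.4% of all genes and 36.9% and 27.5% of genes with a mean above 5. On 6 genes (SSR4, SRP9, SPCS1, SEC61B, SRP19 and SRP68) every mastitis array lay below every healthy array, against 5.84% of all probe sets. That is 10.9% of the 55 genes, close to the 9.70% of all genes, and for means above 5 it is 12.8% of members and 18.3% of genes, so the count of separated genes does not exceed its background. On 0 of the 55 genes every mastitis array lay above, against 6.22% of all probe sets.

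**Figure D1:**
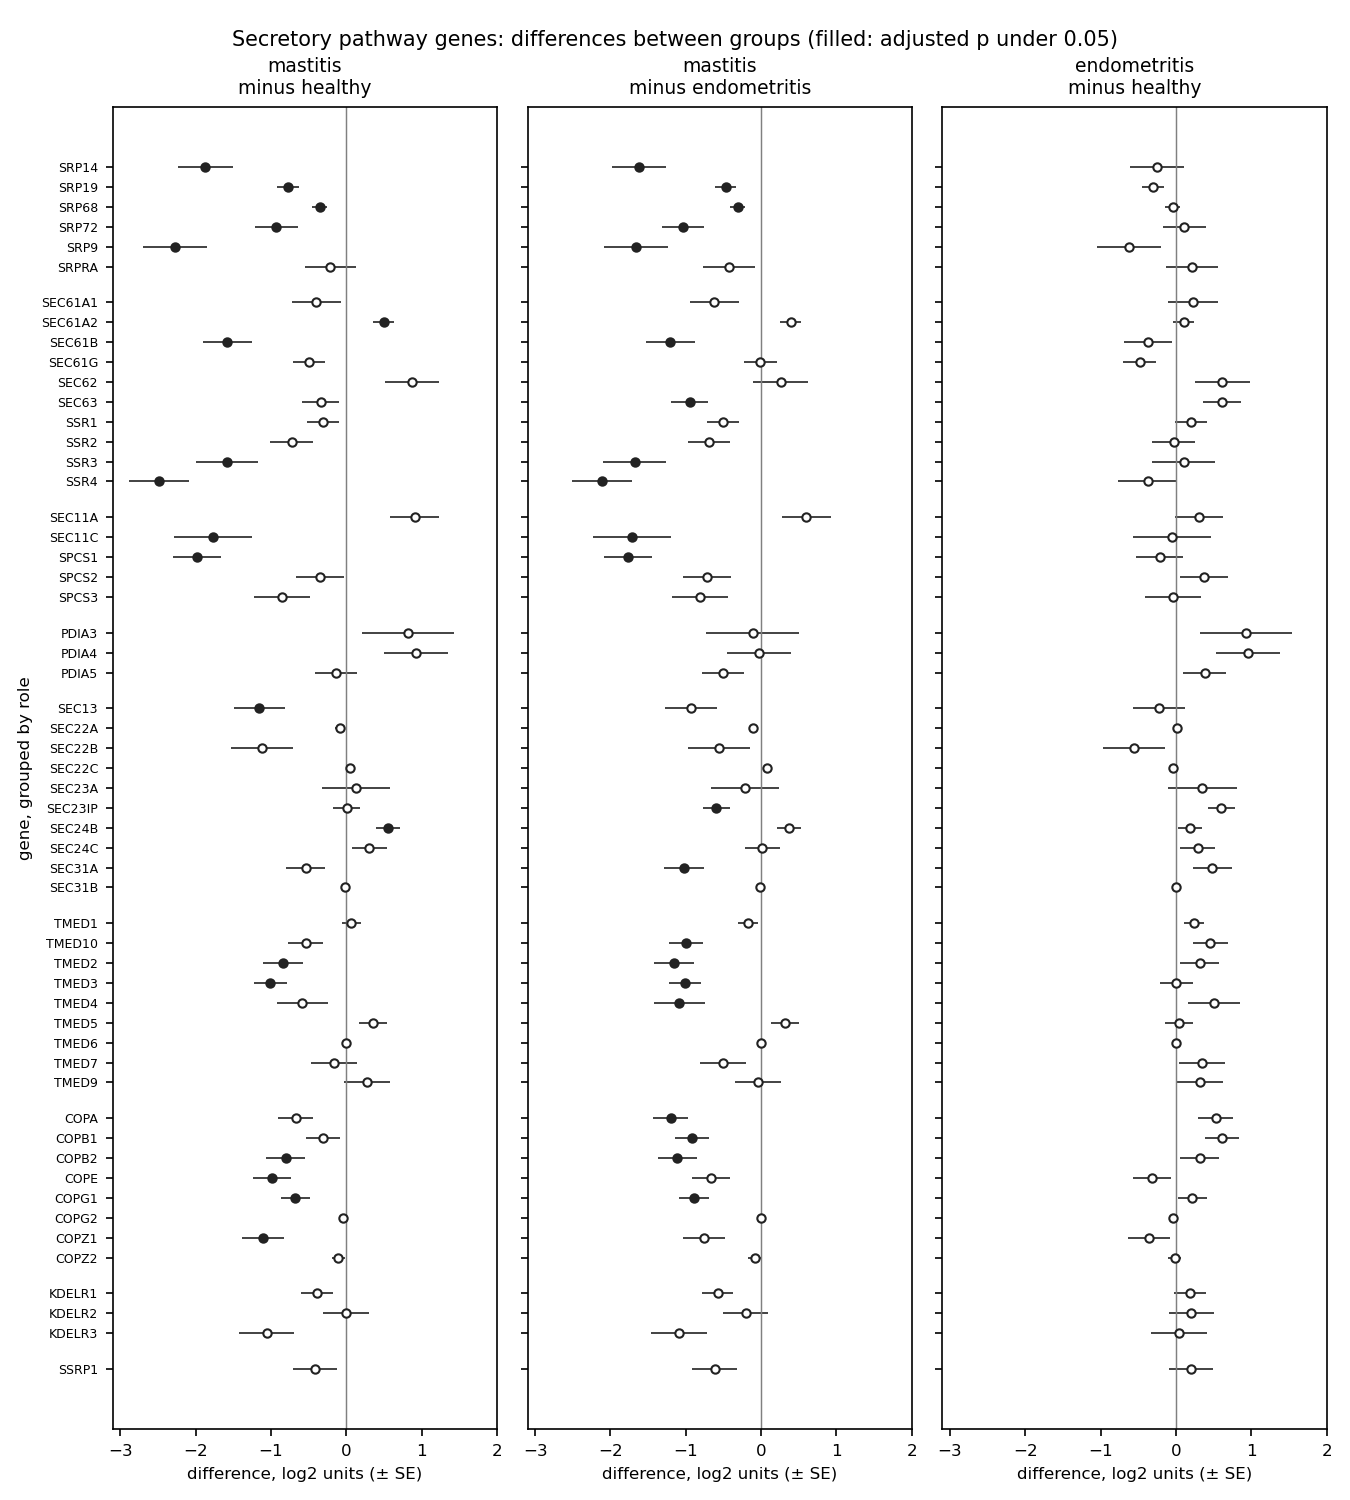
Difference between groups for each of the 55 genes in log2 units (horizontal axis, point and SE), grouped by role from SRP at the top to KDEL receptors and SSRP1 at the bottom. Filled points passed an adjusted p of 0.05: 19 for mastitis minus healthy, 21 for mastitis minus endometritis and 0 for endometritis minus healthy.

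The signal recognition particle was the role with the largest share of genes that fell. SRP9 and SRP14 form the pair that binds the end of the SRP RNA and holds up translation. SRP9 read 4.90, 6.33 and 6.71 on mastitis arrays and 7.11, 8.59 and 9.03 on healthy arrays (lowest, median and highest). It fell by 2.28 ± 0.43, or 4.84-fold (adjusted p = 0.0015), and no mastitis array reached the healthy range. SRP14 read 5.56, 6.09 and 7.14 in mastitis and 7.12, 8.30 and 8.81 in healthy cows. It fell by 1.87 ± 0.36, or 3.65-fold (adjusted p = 0.00183), and 5 of 6 mastitis arrays lay below all healthy arrays. SRP19, which binds the SRP RNA during assembly, fell by 0.78 ± 0.14 (adjusted p = 0.0013). Its mastitis arrays were close together, at 6.60, 6.71 and 7.15, all below the healthy arrays at 7.24, 7.53 and 8.04. SRP72 and SRP68, partners at the opposite end of the particle, fell by 0.93 ± 0.28 and by 0.35 ± 0.10 (adjusted p = 0.0304 and 0.0186). For SRP68 the groups did not overlap although the change was small: 3.17, 3.36 and 3.38 in mastitis and 3.49, 3.53 and 3.99 in healthy cows. SRPRA, the receptor subunit that takes up SRP at the ER, was -0.21 ± 0.34 from healthy (adjusted p = 0.75, 95% interval -0.94 to 0.52) and did not pass.

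At the translocon 3 of 10 genes fell (SSR4, SSR3 and SEC61B), 1 rose (SEC61A2) and 6 did not pass. SSR4, the delta subunit of the TRAP complex, had the lowest adjusted p and the largest fall of all 55 genes. It read 7.50, 8.58 and 9.42 on mastitis arrays and 10.38, 11.22 and 11.54 on healthy arrays, a fall of 2.49 ± 0.39 or 5.60-fold (adjusted p = 0.00048). Every healthy array lay above every mastitis array. SSR3, the gamma subunit, read 6.17, 7.26 and 8.34 in mastitis and 8.05, 8.85 and 9.50 in healthy cows and fell by 1.58 ± 0.41 (adjusted p = 0.0128) at both of its probe sets. The other TRAP subunits were lower by less and did not pass: SSR2 (beta) at -0.72 ± 0.28 (adjusted p = 0.0909) and SSR1 (alpha) at -0.31 ± 0.21 (adjusted p = 0.366), though a dimmer SSR1 probe set was called lower at -0.59 (adjusted p = 0.0496). SEC61B, the beta subunit beside the channel, read 7.16, 7.92 and 8.85 in mastitis and 9.08, 9.67 and 9.92 in healthy cows. It fell by 1.58 ± 0.32, or 2.98-fold (adjusted p = 0.00248), and the groups did not overlap.

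The pore-forming alpha subunit has a pair of genes, and SEC61A2 of that pair was the translocon gene that rose. SEC61A1 was -0.40 ± 0.33 (adjusted p = 0.466) and did not pass. SEC61A2 rose by 0.50 ± 0.14 (adjusted p = 0.0184), with 3.23, 3.43 and 3.86 in mastitis and 2.87, 2.92 and 3.32 in healthy cows, and 4 of 6 mastitis arrays lay above all healthy arrays. It is a dim signal, and 2 of its 5 probe sets passed. SEC61G, the third channel subunit, was -0.49 ± 0.22 (adjusted p = 0.135). SEC62, which with SEC63 helps proteins that enter after translation, was 0.87 ± 0.36 (adjusted p = 0.11) at its brighter probe set and -0.87 at the other, so its direction is not settled. SEC63 was -0.34 ± 0.25 (adjusted p = 0.41).

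Of the 5 signal peptidase genes 2 fell (SPCS1 and SEC11C), 0 rose and 3 did not pass. SPCS1, an accessory subunit, read 6.50, 6.996 and 7.92 on mastitis arrays and 8.62, 9.22 and 9.53 on healthy arrays. It fell by 1.98 ± 0.32, or 3.96-fold (adjusted p = 0.000488), with no overlap between the groups. SPCS3 and SPCS2, the other accessory subunits, were at -0.85 ± 0.37 and -0.35 ± 0.32 and did not pass (adjusted p = 0.136 and 0.506). SEC11A and SEC11C are alternative catalytic subunits of the enzyme. SEC11C read 3.88, 5.23 and 6.57 in mastitis and 6.35, 6.91 and 8.22 in healthy cows and fell by 1.77 ± 0.52, or 3.40-fold (adjusted p = 0.0243), with 5 of 6 mastitis arrays below the healthy range. SEC11A read 6.23, 6.54 and 6.98 in mastitis and 5.05, 5.49 and 6.75 in healthy cows, a difference of 0.91 ± 0.32 that narrowly missed the threshold (adjusted p = 0.0591). On each array the log2 level of SEC11A minus that of SEC11C was -0.05, 1.38 and 2.69 in mastitis, -2.82, -0.67 and 0.53 in endometritis and -3.17, -1.28 and 0.40 in healthy cows (lowest, median and highest). This pair was chosen after its values were seen, its probe sets can differ in affinity, and the shift was not tested.

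**Figure D2:**
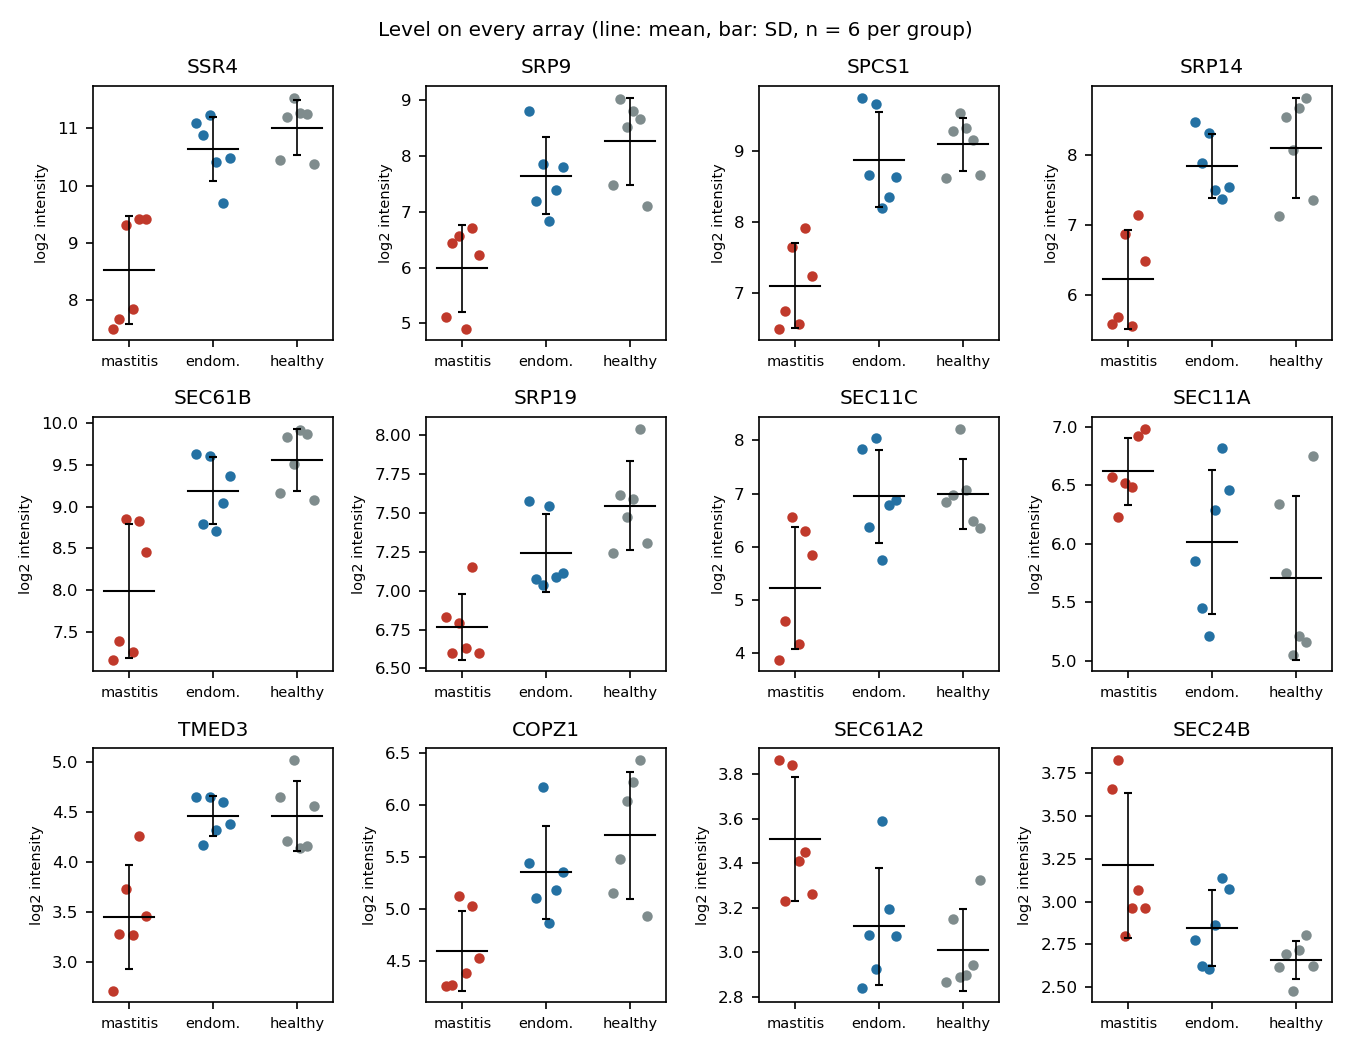
Log2 intensity of 12 genes on every array (points), with the group mean (line) and SD (bar), for 6 mastitis, 6 endometritis and 6 healthy cows. SSR4, SRP9, SPCS1, SEC61B and SRP19 show no overlap between mastitis and healthy arrays; SEC11A, which did not pass, lies at 6.23 to 6.98 in mastitis and 5.05 to 6.75 in healthy cows.

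The folding and retrieval genes showed no called change. PDIA3 (ERp57), which works with the lectin chaperones on glycoproteins, had a difference of 0.82 ± 0.61 (adjusted p = 0.423), and PDIA4 (ERp72) of 0.93 ± 0.42 (adjusted p = 0.154). The intervals are wide: -0.48 to 2.12 for PDIA3 and 0.03 to 1.83 for PDIA4. PDIA5 was -0.13 ± 0.28. Of the KDEL receptors, which return ER residents from the Golgi apparatus, KDELR3 read 3.34, 3.79 and 5.17 in mastitis and 4.65, 5.04 and 5.94 in healthy cows. Its difference of -1.06 ± 0.37 just missed the threshold (adjusted p = 0.0567), with 4 of 6 mastitis arrays below the healthy range. KDELR1 was -0.39 ± 0.21 (adjusted p = 0.238) and KDELR2 was -0.00 ± 0.30, with a 95% interval of -0.64 to 0.64.

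Among the COPII and SEC22 genes, SEC13 of the outer cage fell by 1.15 ± 0.34, or 2.23-fold (adjusted p = 0.0246). It read 4.51, 5.28 and 6.49 in mastitis and 6.14, 6.57 and 6.99 in healthy cows, and 4 of 6 mastitis arrays lay below all healthy arrays. SEC13 also serves in the nuclear pore. Its partner in the cage, SEC31A, was -0.54 ± 0.26 (adjusted p = 0.185). SEC24B, a cargo-binding subunit of the inner coat, rose by 0.56 ± 0.16 (adjusted p = 0.0222), with 2.80, 3.01 and 3.83 in mastitis and 2.48, 2.66 and 2.80 in healthy cows. Its signal was near background in the healthy cows, and 5 of 6 mastitis arrays were above all of them. SEC24C, another cargo-binding subunit, was 0.30 ± 0.23 and SEC23A, its inner coat partner, 0.13 ± 0.45, and neither passed. SEC23IP, which binds SEC23 at ER exit sites, was 0.01 ± 0.18 at its brightest probe set, while a dimmer probe set was called higher at 0.91. SEC22B, a SNARE of ER and Golgi fusion, was -1.12 ± 0.41 (adjusted p = 0.0706). SEC22A, SEC22C and SEC31B lay near the table median in every group, between 2.45 and 3.00.

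Of the p24 proteins, which sort cargo into COPII and COPI vesicles, TMED3 and TMED2 fell. TMED3 read 2.71, 3.37 and 4.26 in mastitis and 4.15, 4.39 and 5.03 in healthy cows and fell by 1.01 ± 0.22, or 2.01-fold (adjusted p = 0.00366). Only 1 mastitis array reached the healthy range. TMED2 fell by 0.84 ± 0.26 (adjusted p = 0.0317), with 7.36, 8.41 and 8.95 in mastitis and 8.78, 9.14 and 9.35 in healthy cows. TMED4 and TMED10 were at -0.58 ± 0.34 and -0.54 ± 0.23 (adjusted p = 0.287 and 0.122). TMED7, TMED1, TMED9 and TMED5 ran from -0.16 to 0.35 and did not pass, and TMED6 was at background on all 18 arrays.

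In the COPI coat 4 subunits fell together. COPZ1 (zeta) fell by 1.11 ± 0.28, or 2.16-fold (adjusted p = 0.00975), with 4.26, 4.46 and 5.12 in mastitis and 4.93, 5.76 and 6.44 in healthy cows; 1 of its 3 probe sets passed. COPE (epsilon) fell by 0.98 ± 0.25 (adjusted p = 0.0119), with 5.47, 6.32 and 7.17 in mastitis and 6.99, 7.44 and 7.56 in healthy cows. For both genes 4 of 6 mastitis arrays lay below the healthy range. COPB2 (beta prime) and COPG1 (gamma) fell by 0.80 ± 0.26 and by 0.68 ± 0.19 (adjusted p = 0.0398 and 0.0216). COPA (alpha) was -0.67 ± 0.23, with 5 of 6 mastitis arrays below all healthy arrays, but narrowly did not pass (adjusted p = 0.0529). COPB1 (beta) was -0.30 ± 0.23 (adjusted p = 0.423). COPG2 and COPZ2, paralogs of the gamma and zeta subunits, were dim, at 2.43 to 2.78 in these groups. SSRP1, outside the route, was -0.41 ± 0.30 (adjusted p = 0.398).

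All 17 genes that fell kept their sign in every setting run, but the number that passed depended on the setting. With the GAPDH gap as a covariate 3 passed (SPCS1, SRP19 and SSR4), after scaling to the hybridisation controls 7 passed, and among the 8 arrays with a title number up to 120 0 passed (limma). The share of all probe sets called, lower and higher together, was 5.95% with this covariate and 12.45% after this scaling. The main fit called 9.35% lower and 10.2% higher. Omitting a single array ended 7 of the 19 calls in at least 1 fit. COPB2 was lost without mastitis 1, 2, 4 or 6 or any healthy array (adjusted p from 0.051 to 0.0953). TMED2 was lost without mastitis 1, 2 or 4 or healthy 1, 2, 3 or 6 (0.0519 to 0.0764), and SRP72 without mastitis 1, 2 or 4 or healthy 2, 4 or 5 (0.0616 to 0.0721). SEC13 was lost without mastitis 1, 2 or 4 or healthy 4 or 5 (0.0573 to 0.0617), and SEC11C without mastitis 1, 2 or 4 or healthy 3 (0.055 to 0.061). COPG1 was lost without mastitis 1 or 4 (0.0509 to 0.0533), and SEC24B without mastitis 1 or healthy 3 (0.0503 to 0.0546). The other 12 calls held in all 18 of these fits. Without mastitis 1 or without mastitis 4 the lower count was 11.

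The mastitis arrays differed among themselves in these genes, and the differences ran alongside the neutrophil markers. On mastitis arrays 1, 2 and 4 the number of the 55 genes below the lowest healthy array was 33, 31 and 33 (60.0%, 56.4% and 60.0%). On arrays 6, 3 and 5 it was 21, 12 and 7 (38.2%, 21.8% and 12.7%). Over all 9155 genes the same share was 30.2%, 29.1% and 29.9% on arrays 1, 2 and 4. It was 23.1%, 19.1% and 16.8% on arrays 6, 3 and 5, so on array 5 the share of members was under that of all genes. The mean level of the 55 genes was 5.25, 5.44 and 5.19 on mastitis arrays 1, 2 and 4 and 5.79, 6.00 and 6.01 on arrays 6, 3 and 5, against 5.90 to 6.25 on healthy arrays. The mean neutrophil marker level was 9.47, 9.44 and 9.36 on arrays 1, 2 and 4 and 8.98, 8.33 and 8.10 on arrays 6, 3 and 5. SSR4, itself among the 55, is an example, at 7.50, 7.66 and 7.84 on arrays 1, 2 and 4 and at 9.42, 9.31 and 9.42 on arrays 6, 3 and 5. Not all members divided this way. SEC62 ran opposite, at 7.28, 7.41 and 6.83 on arrays 1, 2 and 4 and 6.80, 6.35 and 6.07 on arrays 6, 3 and 5. KDELR2 did too, at 7.94, 6.53 and 6.79 against 6.45, 6.02 and 5.95. The mammary secretory level did not follow this order: array 1, among the lowest in the 55 genes, had the highest secretory level of the mastitis arrays at 7.29. These are values of 6 arrays, seen in the data and not tested.

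**Figure D3:**
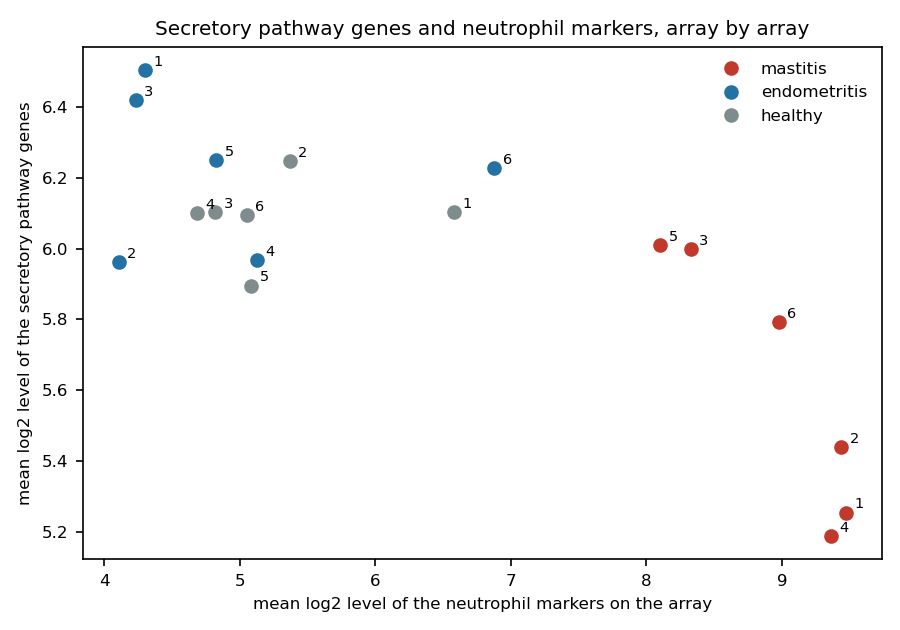
Mean log2 level of the 55 genes (vertical axis) against the mean log2 level of 9 neutrophil markers (horizontal axis) on each of the 18 arrays, numbered by replicate. Mastitis arrays 1, 2 and 4 lie lowest, at 5.19 to 5.44, and carry the highest neutrophil levels, while endometritis and healthy arrays lie between 5.90 and 6.50.

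Mastitis set against endometritis compares 2 diseases, of the udder and of the uterus, and shares its mastitis arrays with the comparison above. Of the 55 genes 21 were lower in mastitis, 0 were higher and 34 did not pass. Over all probe sets 6.55% were called lower and 7.99% higher. Among genes with a mean above 5 over all arrays 19 of 39 members (48.7%) were lower, against 23.7% of the 2319 genes as bright, of which 16.5% were higher. At an unadjusted p under 0.05 limma gave 30 lower (54.5%) and 2 higher (3.64%), against 19.3% and 14.3% of all genes, and the median difference was -0.60, against -0.01 over all genes. On 10 genes (18.2%) every mastitis array lay below every endometritis array, against 3.91% of probe sets and 5.96% of all genes. For means above 5 this held for 23.1% of the 39 members and 11.5% of the 2319 genes. On 0 genes every mastitis array lay above, against 4.43% of probe sets. Lower were 5 of 6 SRP genes, 4 of 10 translocon genes, 2 of 5 signal peptidase genes, 2 of 10 COPII and SEC22 genes, 4 of 9 p24 genes and 4 of 8 COPI genes.

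The COPI and p24 genes carried many of these calls. COPA read 5.20, 5.88 and 6.49 in mastitis and 6.47, 7.02 and 7.80 in endometritis and differed by -1.20 ± 0.23 (adjusted p = 0.00266). TMED2 differed by -1.16 ± 0.26, with 7.36, 8.41 and 8.95 in mastitis and 9.11, 9.40 and 9.88 in endometritis (adjusted p = 0.00699). For TMED2 the groups did not overlap. COPB2 was at -1.12 ± 0.26, COPB1 at -0.91 ± 0.23 and COPG1 at -0.89 ± 0.19 (adjusted p = 0.00865, 0.0128 and 0.00591). TMED10, TMED3 and TMED4 were at -0.997 ± 0.23, -1.01 ± 0.22 and -1.08 ± 0.34 (adjusted p = 0.00809, 0.00512 and 0.0432). SEC31A, of the outer COPII cage, read 5.78, 6.82 and 7.42 in mastitis and a narrow 7.56, 7.76 and 7.82 in endometritis, a difference of -1.02 ± 0.26 (adjusted p = 0.0148). SEC23IP differed by -0.60 ± 0.18 (adjusted p = 0.0335), and SEC63 by -0.95 ± 0.25 (adjusted p = 0.016). Dimmer probe sets differed by 0.21 and 0.00 for SEC23IP, 0.11 and -0.30 for SEC63 and -0.18 for TMED10, and none passed. With the probe sets of a gene averaged, 18 of the 21 calls held, and SEC23IP, SEC63 and TMED10 did not pass.

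Of the 21 genes for SRP, the translocon and the signal peptidase 11 were lower here. SSR4 read 9.70, 10.68 and 11.24 in endometritis, all above the 6 mastitis arrays, a difference of -2.11 ± 0.39 (adjusted p = 0.00215). SPCS1, SSR3 and SRP9 differed by -1.77 ± 0.32, -1.68 ± 0.41 and -1.66 ± 0.43 (adjusted p = 0.00161, 0.012 and 0.0152), and SRP14 by -1.62 ± 0.36 (adjusted p = 0.00667). SEC11C differed by -1.72 ± 0.52, SEC61B by -1.20 ± 0.32, SRP72 by -1.04 ± 0.28, SRP19 by -0.47 ± 0.14 and SRP68 by -0.31 ± 0.10 (adjusted p 0.018 to 0.0457). Neither SEC61A2 (0.39 ± 0.14, adjusted p = 0.0727) nor SEC24B (0.37 ± 0.16, adjusted p = 0.159) passed. SEC11A differed by 0.60 ± 0.32, also short of the threshold (adjusted p = 0.259). Omitting a single array ended 6 of the 21 calls in at least 1 fit. SRP72 was lost without mastitis 4 or endometritis 1 or 3 (adjusted p from 0.0524 to 0.0562), SEC11C without mastitis 1, 2 or 4 or endometritis 1, 3, 5 or 6 (up to 0.0883), and SRP19 without mastitis 1, 2, 3, 4 or 6 or endometritis 1 or 4 (up to 0.0893). SEC23IP was lost without mastitis 3, 4, 5 or 6 or endometritis 1, 2, 3 or 4 (up to 0.0738). SRP68 and TMED4 were lost in 12 and 13 of 18 fits (up to 0.107 and 0.102), including fits without each of mastitis 1, 2, 4 and 6. After scaling to the hybridisation controls 9 of the 21 passed, while 8.62% of all probe sets were called lower or higher. Arrays with a title number up to 120 include 1 endometritis array, too few for this comparison.

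Endometritis set against healthy compares milk cells of cows with disease outside the udder with those of healthy cows. None of the 55 genes passed in limma, 0 higher and 0 lower, and neither did any of the 24016 probe sets (0% higher and 0% lower). At an unadjusted p under 0.05 the 55 genes gave 5 higher (9.09%) and 2 lower (3.64%), against 1.86% and 3.58% of all genes. Of the 55 differences 36 were above 0, from -0.62 (SRP9) to 0.96 (PDIA4), with a median of 0.18, against 0.00 over all genes. PDIA4 read 5.29, 5.59 and 6.00 in endometritis and 3.59, 4.84 and 5.45 in healthy cows (0.96 ± 0.42, adjusted p = 0.925). SEC23IP was the member whose groups did not overlap, at 5.43, 5.82 and 5.92 in endometritis and 4.62, 5.19 and 5.40 in healthy cows (0.60 ± 0.18, adjusted p = 0.925). Over all probe sets 0.0999% showed every endometritis array above and 0.104% below. The 9 p24 genes were all at or above healthy, by 0.00 to 0.50, and 4 of the 6 SRP genes were below healthy, by up to -0.62; none of these passed. COPB1 and SEC63 were at 0.61 ± 0.23 and 0.61 ± 0.25, with 4 and 5 of 6 endometritis arrays above all healthy arrays.

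Among the 12 cows without mastitis the secretory level of the milk cells varied, and few of the 55 genes had a called slope on it. Macrophage markers moved against it on the same arrays: 6 of 11 had a called negative slope, with a median of -1.07, and their part in the slopes below was not tested. A slope of log2 intensity on the mammary secretory level was fitted with the group as a covariate. It was called positive for 3 and negative for 1 of the 55 genes, against 1.72% and 4.67% of all probe sets. The positive share was 5.45%, against 2.73% of all genes. For means above 5 it was 7.69% of 39 members and 5.35% of 2319 genes, and 186 of those 2319 genes were negative. After scaling to the hybridisation controls 0 of the 55 genes were positive and 0 negative (limma), SSR4 included at 0.34 (adjusted p = 0.556). SSR4 gained 0.45 ± 0.05 per log2 unit of the secretory level (adjusted p = 0.00321). SEC22B gained 0.62 ± 0.15 and SPCS1 0.39 ± 0.10 (adjusted p = 0.0423 and 0.0456), and SEC11A had a slope of -0.50 ± 0.11 (adjusted p = 0.0339). On the values as deposited SSR4 kept its call whichever of the 12 arrays was omitted, while SEC22B and SPCS1 were each lost in 10 of 12 such fits (adjusted p up to 0.127 and 0.128), SEC22B in all but those without endometritis 5 or healthy 5 and SPCS1 in all but those without endometritis 4 or 5, and SEC11A without endometritis 2 or 3 or healthy 2, 3, 4 or 6 (up to 0.102). The secretory level had 2 low arrays, endometritis 5 at 7.98 and healthy 6 at 9.32, and without both the calls of SEC11A and SEC22B were lost. Some mastitis arrays do not continue these lines: mastitis array 1 had the highest secretory level of its group and the lowest SSR4, at 7.50.

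**Figure D4:**
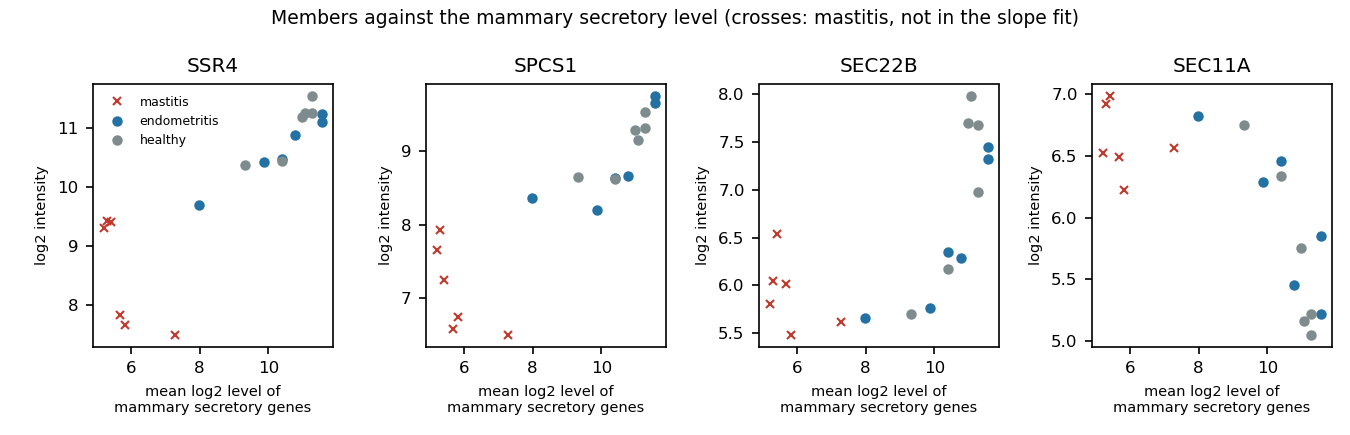
Log2 intensity of the 4 genes with a called slope against the mean log2 level of 21 mammary secretory genes on each array. Circles are the 12 endometritis and healthy arrays of the fit and crosses the 6 mastitis arrays, which lie at 5.22 to 7.29; SSR4, SPCS1 and SEC22B run upward and SEC11A downward over the circles.

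Lists of neighbouring genes were counted in mastitis against healthy, where 15.8% of all genes were lower and 11.3% higher, and 29.7% and 20.5% of genes with a mean above 5. Of 11 oligosaccharyltransferase genes, which add glycans at the translocon, 3 fell (27.3%) and 0 rose, with a median of -0.53: OST4 fell by 1.95 ± 0.29, DAD1 by 0.96 ± 0.26 and TMEM258 by 0.87 ± 0.22. Of 13 genes for the other routes into the membrane (EMC and GET) 3 fell (23.1%) and 0 rose, both lists thus being within the range of those backgrounds. UBL4A of the GET route, which hands over tail-anchored proteins, fell by 2.23 ± 0.41 (adjusted p = 0.00135). Of 23 COPI regulators, tethers and SNAREs 10 fell (43.5%) and 1 rose, with a median of -0.39. This list also holds ARCN1, the delta subunit of the COPI coat itself, which is among the 10 at -0.89. ARFGAP3, which ends the ARF cycle of the coat, fell by 1.72 ± 0.37, and the Golgi stacking protein GORASP2 by 1.44 ± 0.34. The pair of Golgi SNAREs moved apart at their brightest probe sets: GOSR1 rose by 1.48 ± 0.25 and GOSR2 fell by 0.97 ± 0.22. ARFGAP3 and GOSR2 were each called lower at 1 of their 2 probe sets. Of 18 ER exit and early cargo receptor genes 3 fell (16.7%) and 1 rose. MCFD2, the partner of the cargo receptor LMAN1, fell by 2.42 ± 0.37, while SAR1A, the GTPase that starts the COPII coat, rose by 1.56 ± 0.24, with 5.93, 6.14 and 6.64 in mastitis above all healthy arrays at 4.23, 4.56 and 5.20.

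Of 10 unfolded protein response regulators 4 rose (40.0%) and 0 fell, against the same 11.3% higher among all genes and 20.5% among bright genes, with a median of 0.33. XBP1, ATF6 and ERN1, further regulators of this response, are not among these 10 and were not analysed. DDIT3 (CHOP), a transcription factor of the stress response, read 6.64, 6.77 and 8.92 in mastitis and 4.04, 4.48 and 4.61 in healthy cows and rose by 2.91 ± 0.40 (adjusted p = 0.000169). PPP1R15A, which restores translation, rose by 1.74 ± 0.32, ATF4 by 1.33 ± 0.36 and ATF6B by 1.25 ± 0.20. DDIT3, ATF4 and PPP1R15A also respond to stresses outside the ER. Of 18 ER chaperones and folding enzymes 2 (11.1%) rose, ERO1A by 2.13 ± 0.54 and DNAJB9 by 0.88 ± 0.28, and 2 fell, ERP29 by 1.60 ± 0.36 and TXNDC5 by 1.52 ± 0.42, a share near that of all genes. HSPA5 (BiP), the main ER chaperone, stood at 0.94 ± 0.38 at its brightest probe set without passing (adjusted p = 0.104). However, 1 of its 3 probe sets, a dimmer one, was called higher. ERO1A was called higher at 1 of its 2 probe sets. P4HB was -0.14 ± 0.32. Of 12 ER-associated degradation genes 1 rose (8.33%) and 2 fell (16.7%), also near the shares of all genes: HERPUD1 rose by 1.43 ± 0.21, and UFD1 and OS9 fell by 0.93 ± 0.19 and 0.17 ± 0.05. UFD1 was called lower at 1 of its 3 probe sets. The neutrophil and secretory markers moved with these lists too, and their part was not tested.

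**Figure D5:**
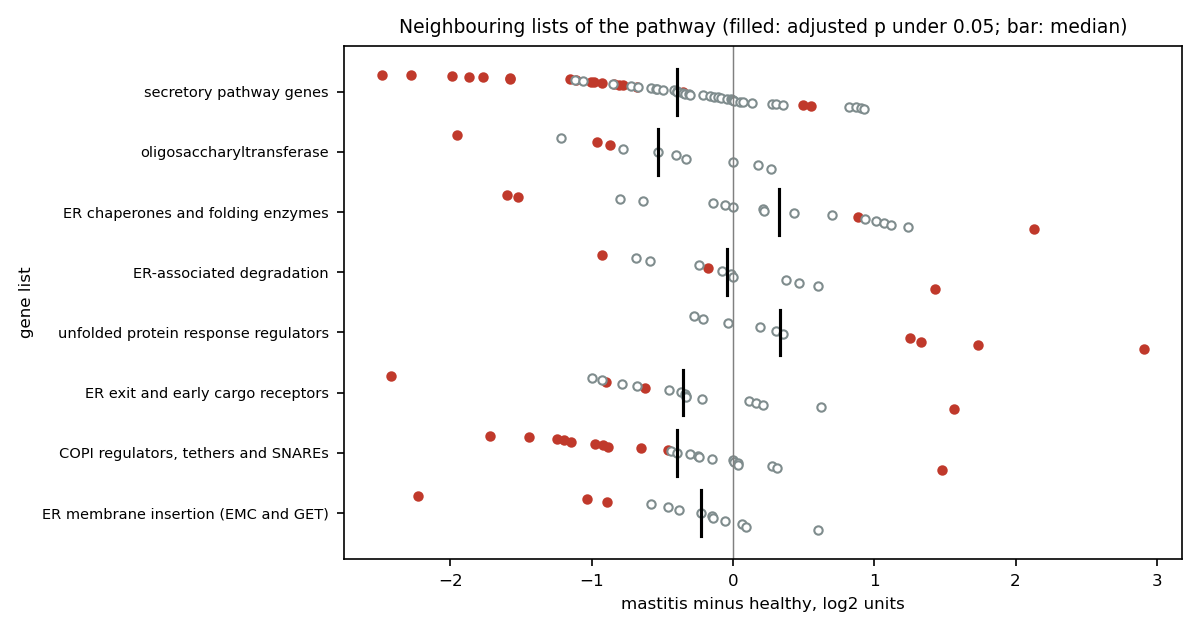
Difference between mastitis and healthy in log2 units (horizontal axis) for each gene of the route and of 7 neighbouring lists; filled points passed an adjusted p of 0.05 and the bar is the list median. The 4 called regulators of the unfolded protein response lie between 1.25 and 2.91, and the median of the 55 secretory pathway genes is -0.39.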

How the data were processed

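RNA of milk cells from 18 cows was measured, 1 array each. The deposited values are log2 intensities that the authors had normalised. RMA, GCRMA and limma appear in the submitters' processing notes without role, order or version. The normalisation that was used and the logarithm's base are not stated there. With a range of 2.43 to 14.2 and a median of 2.55, the deposited values were read as log2, and fold changes rest on that reading. Per the labels' protocols, RNA had an integrity number above 6, 100 ng were labelled from the poly-A end and 10 µg were hybridised.

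Groups came from the labels. The table held 24128 probe sets, 112 of them controls, and 0 columns of no sample. Names came from the platform annotation, which gave a single symbol to 13292 probe sets; 86 carried more than 1 symbol and stayed unnamed, as did 10638 without any. Of the 55 genes 33 had 1 probe set and 22 more. No sequences or coordinates are given.

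All 24016 other probe sets entered a limma model (version 3.58.1, R 4.3.3; lmFit, eBayes, two-sided tests) with a term for each group over 18 arrays. P-values were adjusted over all of them by Benjamini-Hochberg, and a call is an adjusted p under 0.05. The slope fit used 12 arrays. At background means at or under 2.55 on all arrays of a group. Background shares by brightness split genes by their mean over all 18 arrays, at 2.55 or at 5, lines chosen after the values were seen. The procedure was tested on simulated data with independent normal noise. These lacked the lower bound of the deposited values, so the check does not cover genes near background. The rule for named genes took all members and, of each other list, up to 4 genes with the smallest p. To these it added CSN2, CSN3, LALBA, ELF5, S100A9, CXCR1, XBP1, HSPA5 and P4HB. ARCN1 is named outside this rule. Marker genes are given only within their lists, and XBP1 was not analysed here. The marker lists are mammary secretory, epithelial structure, neutrophil, macrophage, T cell, B and plasma cell, and erythroid. The members and lists were chosen with earlier results of these data known.

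Alternatives left out dim probe sets (under 6 arrays above the median), centred arrays on bright probe sets, scaled them to the hybridisation controls, used only the 12 arrays compared, eBayes with trend and robust, array quality weights, the GAPDH gap or the title number as a covariate, arrays on each side of a title number of 120, averaged probe sets of a gene, or left out 1 array. The meaning of the title number is not stated in the labels.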

Additional observations from a re-analysis of the deposited data

Results flagged for a closer look

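Sets of 6 arrays (1 gene in 1 group) were checked for all 55 genes in every group. In 11 sets the highest or lowest array stood far from the other 5 relative to the spread of the set. Chance alone flags about 1 in 20 sets, so a count of this order can arise by chance. On healthy array 5, KDELR2 was at 5.94 and SEC61A1 at 5.60, each below the other healthy arrays (6.62 to 6.87 and 6.46 to 6.89). SEC24C was at 4.78 on healthy array 3, with the others at 5.78 to 6.19. TMED5 was at 4.16 on mastitis array 2, with the others at 3.19 to 3.38. The other 7 were of dim genes. COPZ2 was at 2.58 on mastitis array 4 and at 3.08 on endometritis array 3. SEC22C was at 2.69 on healthy array 1. SEC31B was at 2.49 on mastitis array 4, at 2.54 on endometritis array 3 and at 2.58 on healthy array 2, and TMED6 was at 2.51 on endometritis array 2. None of these genes was called in any comparison.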

How the results depend on the processing

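Of the 17 genes lower in mastitis than in healthy cows, 7 passed after scaling to the hybridisation controls, 10 with array weights, 3 with the GAPDH covariate and 0 of the 55 among arrays with a title number up to 120, where 4 mastitis and 3 healthy arrays remained and 0.171% of all probe sets were called lower. The lower count was 21 without dim probe sets and 19 with centred arrays, and leaving out 1 array gave 11 (without mastitis 1 or mastitis 4) to 19. Of all probe sets, lower and higher together, 12.45% were called after hybridisation scaling, 18.1% with array weights and 5.95% with the GAPDH covariate. With centred arrays 18.9% were called, and without dim probe sets 42.9% of those kept. The higher count of 2 went to 3 without dim probe sets, with centred arrays, array weights or averaged probe sets, 1 after hybridisation scaling (SEC62 in place of the others), 1 with only the 12 arrays compared, 0 with the GAPDH covariate, 0 up to 120 and 1 above 120, and to 1 to 3 without 1 array. Hybridisation scaling moved the median of all bright genes (mean above the table median) from -0.08 to 0.17 against healthy in mastitis and from 0.01 to 0.21 in endometritis. In mastitis against endometritis the lower count of 21 went to 26 without dim probe sets, 9 after hybridisation scaling and 15 to 22 without 1 array. Lower and higher together, 34.6% of the probe sets kept were called without the dim ones, and 8.62% of all after hybridisation scaling. The higher count of 0 became 1 without dim probe sets, 1 above 120, 1 with averaged probe sets, and 0 to 1 without 1 array. Endometritis against healthy gave 0 in every setting run, 0 to 0 without 1 array. The slope counts of 3 and 1 became 6 and 2 without dim probe sets, 25 and 2 with centred arrays (where 61.5% of all probe sets had positive calls), 0 and 0 after hybridisation scaling and 1 and 0 with the GAPDH covariate; without the 2 far arrays 0 were negative. Without 1 array they ran from 1 to 5 and from 0 to 1. Without dim probe sets 6.35% of the probe sets kept had positive and 15% negative calls. With the GAPDH covariate these shares of all probe sets were 0.462% and 0.991%. SEC22C reversed with centred arrays, to a slope of 0.10. Without endometritis 5 and healthy 6, chosen after seeing the data, the counts were 16 lower and 3 higher against healthy and 19 and 0 against endometritis. The causes were not tested. No paired analysis was possible because the labels give no shared replicate numbers.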
